A study of Mus musculus with 9 samples.

Results

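The ovary of a premature ovarian failure model was compared with untreated ovary, over 19598 transcripts of the 40807 in the table. The transcripts were chosen by level alone: a count of at least 10 in 3 or more of the 6 libraries of these 2 groups, which are labelled Blank and POF (premature ovarian failure) and hold 3 libraries each. Poly(A) RNA of ovary from Balb/c animals was sequenced. The labels give the organism as mouse, and no age, genotype or pooling. How ovarian failure was induced is not given in the sources used here. Nor do they say whether each library is a different animal, and a p-value then reflects only how far these libraries scatter, which may be technical. Another group of 3 libraries, POF+BSHXF, is the model treated with the herbal formula Bushen Huoxue Fang. It shares the estimate of the spread here, and its values are given beside those of the other groups. In the 6 libraries compared, the totals ran from 41231313 to 58392086 estimated counts.

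Premature ovarian failure is the loss of ovarian function before the usual age of menopause. The ovary runs short of follicles, each made of an oocyte and the granulosa and theca cells that make oestrogen together, and the pituitary answers with high gonadotropins. In whole ovary, fewer cells of a type and less RNA per cell cannot be told apart. These cell types could not be looked up, because no rat annotation was used here. Every one of the 40807 IDs begins with ENSRNOT, Ensembl's prefix for rat transcripts, and 0 were found in the mouse tables used here. The labelled tissue was therefore not checked against its markers, no list of genes for oocytes, granulosa cells, steroid synthesis, immune cells or cell death could be read, and the file pairs no row with a gene. Whether the reads come from rat or from mouse is not given in the sources used here. At most 2 transcripts higher and 2 lower are named below by ID, and the rest are described by rank, level and number.

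Of the 19598 transcripts, 15587 had a count of at least 10 in all 6 libraries, and 19402 had one in at least 1 library of each group. The others passed through 1 group alone. Of these, 143 reached a count of 10 in all POF libraries and in no Blank library, and 53 in all Blank libraries and in no POF library. They could pass only by differing, so their number does not bear on the comparison. Just inside the rule, 1185 transcripts reached a count of 10 in exactly 3 libraries, with a median mean count of 18. Just outside, 1372 did so in exactly 2 libraries, with a median mean count of 9.5.

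One transcript rose and 1 fell in the model at an adjusted p under 0.05 in edgeR's quasi-likelihood test. These 2 calls are 0.0102% of the transcripts tested, 0.00510% in each direction. The one that fell was at 0 in all POF libraries, so it met the level rule through Blank alone and could be compared only because it differed. Levels below are CPM, counts relative to the library's total, with totals scaled by the trimmed mean of M-values (TMM).

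ENSRNOT00000048407, the transcript that rose, stood at 0.832, 0.760 and 0.980 CPM in Blank libraries 1 to 3. It stood at 9.39, 13.8 and 11.3 CPM in the POF libraries and at 9.05, 7.68 and 11.1 CPM in the POF+BSHXF libraries. The lowest POF library thus lay far above the highest Blank library, and the libraries given the formula lay among or just under those of the model. The mean was 11.5 ± 2.22 CPM in POF against 0.857 ± 0.112 CPM in Blank (SD, n = 3), 13.4-fold higher. The log2 fold change was 3.74 ± 0.27 (SE), with an edgeR adjusted p of 0.0110. In 19 alternatives for this row alone, the adjusted p ran from 8.89e-35 (DESeq2) to 0.434 (edgeR with a replicate block), and 17 were under 0.05. The call ended under limma-voom at a similar size (log2 fold change 3.70, adjusted p = 0.0511). Summed with the row before it in the table, its log2 fold change was 1.63 (edgeR adjusted p = 0.202), and summed with the row after it 3.04 (0.0799). Sums with neighbouring rows were chosen after seeing the data.

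ENSRNOT00000046847, the transcript that fell, stood at 21.7, 28.2 and 26.5 CPM in the Blank libraries. It was at 0 in all 3 POF libraries. The POF+BSHXF libraries held 30.5, 27.2 and 16.7 CPM, so the transcript was missing from the 3 POF libraries and from none of the other 6. A count of 0 was taken to allow up to 12 counts per library, 3 fragments of 4 counts, because multiples of 4 are somewhat over-represented among low values (29.5%, where 25% of the whole numbers are such). That a fragment gives 4 counts was not tested, and a floor with fewer counts per fragment would give a larger fold. That is 0.245 CPM on average in POF, so the transcript was at least 104-fold lower than in Blank, where it averaged 25.5 ± 3.37 CPM (SD, n = 3). This limit covers counting error only. The edgeR adjusted p was 0.00808. Across 19 alternatives for this row alone, the adjusted p ran from 7.87e-22 (DESeq2) to 0.638 (limma-voom), and 17 were under 0.05.

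The table's next row showed the opposite pattern, with 1078, 952 and 1613 counts in POF replicates 1 to 3 and 0 in every Blank and POF+BSHXF library. Added together, the rows averaged 24.2 ± 3.87 CPM in POF against 25.5 ± 3.37 CPM in Blank (SD, n = 3), and the log2 fold change of the sum was -0.07 ± 0.24 (SE; edgeR adjusted p = 0.980). The call also ended under limma-voom (log2 fold change -11.30 for the row alone, adjusted p = 0.638). Whether the 2 rows belong to 1 gene is not known.

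The next transcript in order of p that was higher in POF, present in all 6 libraries and free of overlap, did not pass the threshold. ENSRNOT00000092489 had 0.631, 2.91 and 1.61 CPM in the Blank libraries, 56.2, 51.4 and 52.5 CPM in the POF libraries and 90.2, 95.7 and 75.5 CPM in the POF+BSHXF libraries. The 3 groups stood in this order with no library out of place. The log2 fold change of POF against Blank was 4.95 ± 0.52 (SE), with an edgeR adjusted p of 0.0799. Of 19 alternatives for this row alone, the highest adjusted p was 0.683 (edgeR with a replicate block). The transcript passed in 5 of them: DESeq2 (1.92e-24), limma-voom (0.0429), of which it was the single call, counts divided by 4 (0.0479), and edgeR without Blank replicate 1 (0.0177) or 2 (0.0250). The row after it held 4050, 4502 and 5384 counts in Blank and 2303, 1672 and 2912 in POF. In POF+BSHXF that row held 146, 83 and 2292 counts, so replicates 1 and 2 were far below every POF library. The order of the 3 groups thus holds for ENSRNOT00000092489 alone. Together the rows averaged 95.7 ± 7.19 CPM in Blank and 99.1 ± 7.42 CPM in POF (SD, n = 3), with a log2 fold change of 0.05 ± 0.14 (SE).

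ENSRNOT00000014167 was the next of those lower in POF, and it did not pass the threshold either. Its level was 81.2, 84.9 and 81.4 CPM in the Blank libraries and 24.9, 28.9 and 39.96 CPM in the POF libraries. In the POF+BSHXF libraries it was 79.7, 81.2 and 78.9 CPM, each just under the lowest Blank library. The difference of POF from Blank was -1.40 ± 0.17 on the log2 scale (SE), with an edgeR adjusted p of 0.106. The adjusted p ran from 1.22e-09 (DESeq2) to 0.683 (edgeR with a replicate block) over 19 alternatives for this row alone. Its neighbours were nearly empty, and its sum with the row before or the row after gave -1.40 and -1.39. Without POF replicate 3, the highest of the 3 POF libraries, edgeR called it at -1.62 (adjusted p = 0.0113).

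**Figure D1:**
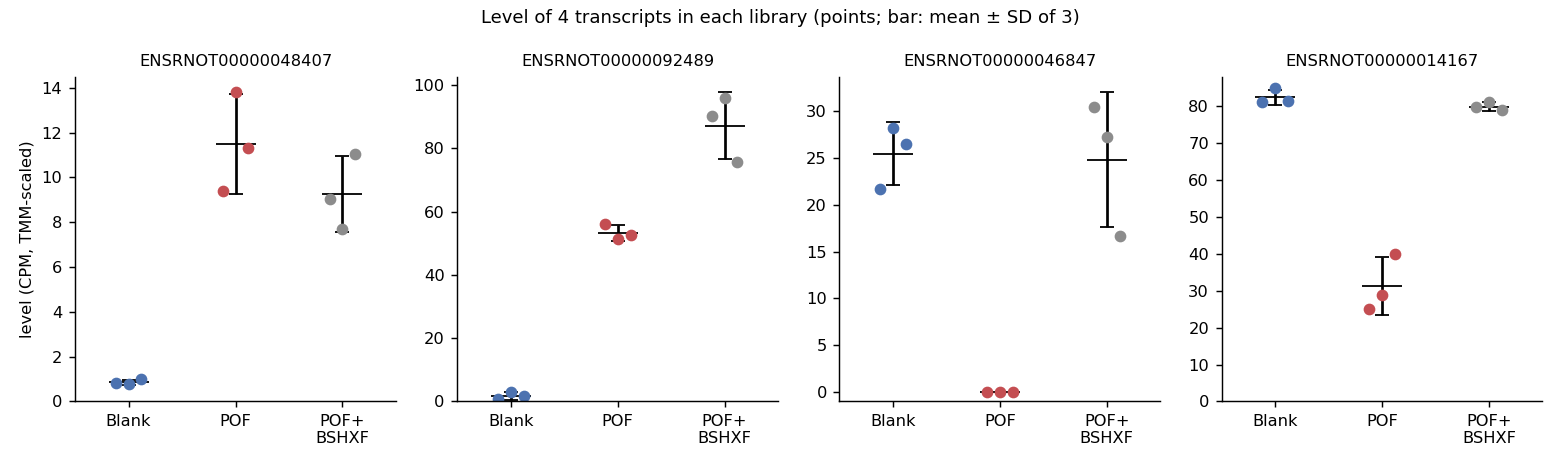
Level of the 4 named transcripts in each of the 9 libraries, in CPM on a linear axis. Points are libraries, and the bar is the mean ± SD of 3. The Blank and POF libraries do not overlap in any of the 4 panels, and the POF points of ENSRNOT00000046847 lie at 0.

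The following transcripts in the same order were smaller in fold or more variable, and none passed the threshold. The 10 next higher in POF had log2 fold changes of 0.42 to 4.37, with a median of 0.89, and each had an edgeR adjusted p of 0.649. The one with 4.37 stood at 3.41, 1.06 and 1.92 CPM in Blank and at 50.4, 44.4 and 37.0 CPM in POF. In POF+BSHXF it stood at 40.8, 46.9 and 4.36 CPM, so replicate 3 of that group lay close to Blank and the other two lay with the model.

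The 10 next lower in POF ran from -0.67 to -7.35, with a median of -0.85 and edgeR adjusted p-values of 0.110 to 0.631. The first had 79.3, 69.6 and 71.7 CPM in Blank, 10.2, 10.7 and 21.4 CPM in POF and 58.04, 70.0 and 68.2 CPM in POF+BSHXF. The second had 98.2, 124.9 and 141.1 CPM in Blank, 38.8, 39.8 and 32.03 CPM in POF and 119.4, 151.8 and 213.9 CPM in POF+BSHXF. In both, the POF libraries were the lowest 3 of the 9. The last of the 10 was different, with 5.90, 9.46 and 9.29 CPM in Blank, 0.0804, 0.0469 and 0.0178 CPM in POF and 0, 0.0411 and 0.264 CPM in POF+BSHXF, so both model groups were near 0. Of the 10, the POF+BSHXF mean lay below every Blank library in 7, and all 3 POF+BSHXF libraries did so in 5. Of the 10 next higher in POF, all 3 POF+BSHXF libraries lay above every Blank library in 10. The POF libraries chose these transcripts, so the levels in POF+BSHXF are given as values only.

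Most transcripts differed little between the groups. The fitted log2 fold change lay within 1 in either direction for 16405 of the 19598 (83.7%), and its median was 0.01. Beyond that range the distribution leaned upward: 2202 lay above 1 and 991 below -1, and 1076 lay above 2 and 266 below -2. These counts, and the later ones over all 19598, include the 143 that passed the level rule through POF alone and the 53 through Blank alone. Such transcripts add more to the higher side by the rule itself, and no count was made without them. At an unadjusted p under 0.05, edgeR gave 1487 transcripts (7.59%), of which 845 (4.31%) were higher and 642 (3.28%) lower in POF. Scaled by library totals alone, a choice made after seeing the data, the same count was 1626, with 1296 higher and 330 lower, and the median log2 fold change of all transcripts moved to 0.12. Limma-voom gave 466 higher and 749 lower. The higher transcripts were thus the majority under both scalings, by different margins, and the minority under limma-voom. Single libraries turned the balance as well. It was 409 higher and 453 lower (862 in all) without Blank replicate 1, 570 and 651 without Blank replicate 2, and 415 and 412 (827 in all) without Blank replicate 3. With POF replicate 1 left out it was 342 and 529 (871 in all), with POF replicate 2 left out 644 and 659, and with POF replicate 3 left out 1259 and 1027 (2286 in all).

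The libraries of the 2 groups did not overlap for 3207 transcripts (16.4%), of which 1718 (8.77%) were higher and 1489 (7.60%) lower in POF. By library totals alone these were 2522 and 820.

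The direction varied with the level of the transcript. Among the 8963 transcripts with a mean of 1 to under 20 CPM, 524 were higher and 205 lower in POF at an unadjusted p under 0.05. Among the 3687 with a mean of 50 CPM or more, 101 were higher and 270 lower. The fold sizes differed too. In the less abundant class the higher transcripts had a median log2 fold change of 2.97 and the lower ones of -1.16, whereas in the more abundant class these were 0.48 and -0.47. The medians over whole classes went from 0.09 at 5 to 10 CPM to -0.07 at 100 to 1000 CPM. By library totals alone all 9 class medians were above 0, from 0.20 down to 0.02, and 253 of the more abundant transcripts were higher and 119 lower. The excess in the less abundant class was 185 higher against 164 lower without POF replicate 1 and 834 against 336 with POF replicate 3 left out. Without Blank replicates 1, 2 and 3 it was 220 against 173, 310 against 196 and 228 against 143, and limma-voom gave 221 against 263.

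**Figure D2:**
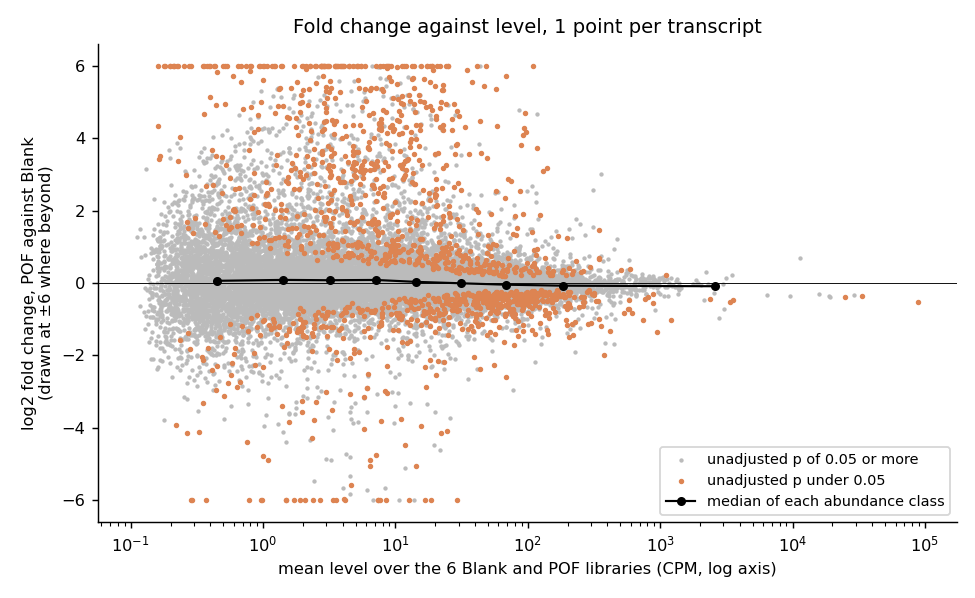
Log2 fold change of POF against Blank (vertical axis, the most extreme values drawn at the outermost ticks) against the mean level over the 6 libraries (log axis, CPM), 1 point per transcript, with the median of each of 9 abundance classes in black. Transcripts at an unadjusted p under 0.05 are orange, and the class medians pass from slightly above 0 on the left to slightly below 0 on the right, a crossing that is absent when library totals alone scale the values.

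**Figure D3:**
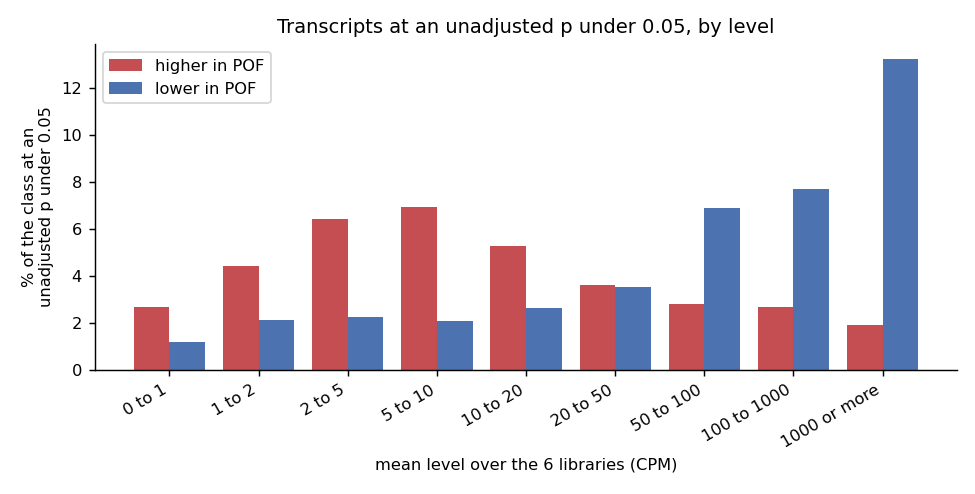
Share of each abundance class (horizontal axis, mean CPM) at an unadjusted p under 0.05, in percent, higher (red) and lower (blue) in POF. Under TMM scaling the red bars are taller in the 5 classes under 20 CPM and the blue bars in the 3 classes from 50 CPM.

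The most abundant transcripts took a smaller part of the POF libraries. The 100 most abundant held 42.1%, 37.7% and 38.4% of all counts in the Blank libraries and 32.6%, 36.8% and 35.3% in the POF libraries. All 3 POF libraries were thus below all 3 Blank libraries, with means of 34.9% ± 2.16 and 39.4% ± 2.36 (SD, n = 3). The first 1000 held 57.9% ± 2.43 in POF and 61.9% ± 1.78 in Blank, and the transcripts beyond them 41.7% ± 2.30 and 37.9% ± 1.76. The 10 most abundant alone held 23.5% ± 2.44 in POF and 27.8% ± 2.30 in Blank. The first 10, 100 and 1000 are nested, and POF minus Blank was -4.32, -4.51 and -3.99 percentage points. The larger sets thus differed by about as much as the first 10 did, and they are not separate evidence. The 2-sided exact permutation p was 0.1 for each of these shares, the smallest that 3 libraries against 3 can give. These shares need no scaling between libraries.

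The most abundant single transcript fell short of the threshold as well. It stood at 127180, 90509 and 97892 CPM in Blank and at 63304, 84129 and 72841 CPM in POF, so that the groups did not overlap. Its log2 fold change was -0.52 ± 0.18 (SE), with an edgeR adjusted p of 0.649. Of the 10 most abundant, 9 had the lower mean in POF, and 3 had groups that did not overlap. The exception, at rank 8, had 9555, 8102 and 8515 CPM in Blank and 6033, 7650 and 28958 CPM in POF. Its higher mean in POF came from replicate 3 alone, the other 2 POF libraries being lower than every Blank library.

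A whole group lacked some transcripts that the other group held. In all, 80 transcripts (0.408%) were at 0 in 1 group and at a count of 10 or more in every library of the other, 63 of them at 0 in Blank and 17 at 0 in POF. They met the level rule through 1 group alone, so they are described here without a test. ENSRNOT00000046847 is 1 of the 17. In the group that held them, the 63 averaged 0.323 to 83.2 CPM, with a median of 2.03 CPM, and the 17 averaged 0.570 to 25.5 CPM, with a median of 3.44 CPM.

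The 63 transcripts at 0 in Blank were not equally strong in the 3 POF libraries. Their median count was 176 in POF replicate 1, 69 in replicate 2 and 30 in replicate 3. The highest level was in replicate 1 for 41 of them, in replicate 2 for 12 and in replicate 3 for 10. In POF+BSHXF replicates 1 to 3 the median counts of the same 63 were 0, 35 and 76. Those 41 had median counts of 271, 69 and 22 in the POF libraries and of 0, 42 and 211 in the POF+BSHXF libraries. Their lead in POF replicate 1 is how they were picked. Among the POF+BSHXF libraries, which did not pick them, replicate 3 held the most. By contrast, the 17 at 0 in POF were even across Blank, with medians of 153, 148 and 180 counts.

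**Figure D4:**
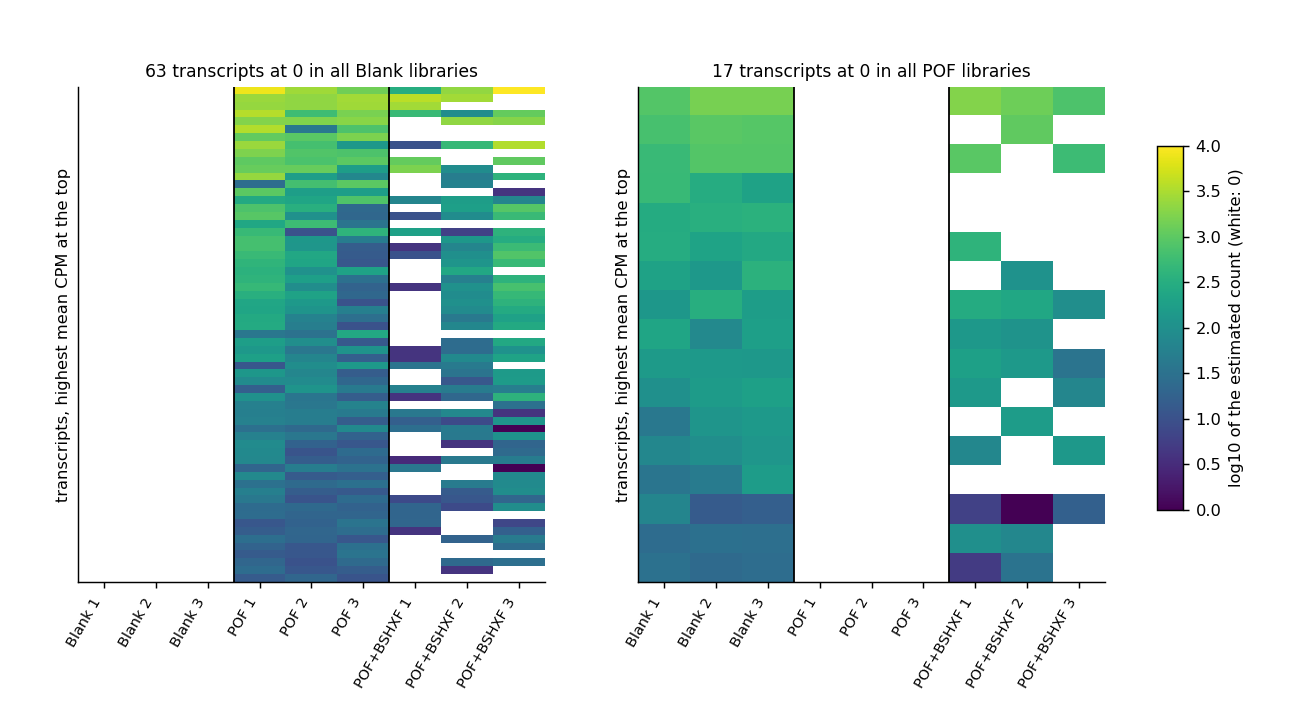
Estimated counts (colour, log10, white for 0) of the 63 transcripts at 0 in all Blank libraries (left) and the 17 at 0 in all POF libraries (right), 1 row per transcript and 1 column per library. On the left, POF 1 has the highest median (176 counts), and POF+BSHXF 1 is above 0 in 28 of the 63 rows.

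Of the 63, 5 had at least 2 CPM in POF and lay within 2-fold of each other in the 3 POF libraries, a choice made after their values were seen. They averaged 18.4 to 49.8 CPM in POF, with median counts of 1804, 1766 and 1958. In 4 of these 5, a row directly before or after in the table was at least 4-fold lower in POF than in Blank. Of all 63, 6 (9.52%) had such an opposite neighbour, against 3.07% of all 19598 transcripts. Of the 17, 6 (35.3%) had a neighbour at least 4-fold higher in POF, against 8.09% of all. The 63 and the 17 were picked for differing and the 19598 were not, so these shares are not like for like. A pair of adjacent rows can also be counted in both sets, as ENSRNOT00000046847 and the row after it are. Division of reads between such rows was not tested.

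The same library led among the transcripts that were higher in POF at an unadjusted p under 0.05. Of these 845, 627 (74.2%) had their highest POF value in replicate 1, 108 in replicate 2 and 110 in replicate 3, and 576 had their lowest POF value in replicate 3. Over all 19598 transcripts, 38.8% were highest in replicate 1. The median level of the 845 on the log2 CPM scale was 0.43, 0.79 and 0.56 in Blank, and 4.25, 3.39 and 1.89 in POF. It was 1.02, 2.57 and 4.09 in POF+BSHXF. POF replicate 3 and POF+BSHXF replicate 1 were thus the libraries of the 2 model groups closest to Blank. The 642 that were lower in POF were more even, with medians of 5.59, 5.45 and 5.58 in Blank and of 4.76, 4.95 and 4.94 in POF, and with 5.22, 5.35 and 5.17 in POF+BSHXF. Both sets were chosen for the difference of POF from Blank, so that difference is a description. What sets POF replicate 1 apart from POF replicate 3 was not tested, since the markers of no cell type could be read.

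**Figure D5:**
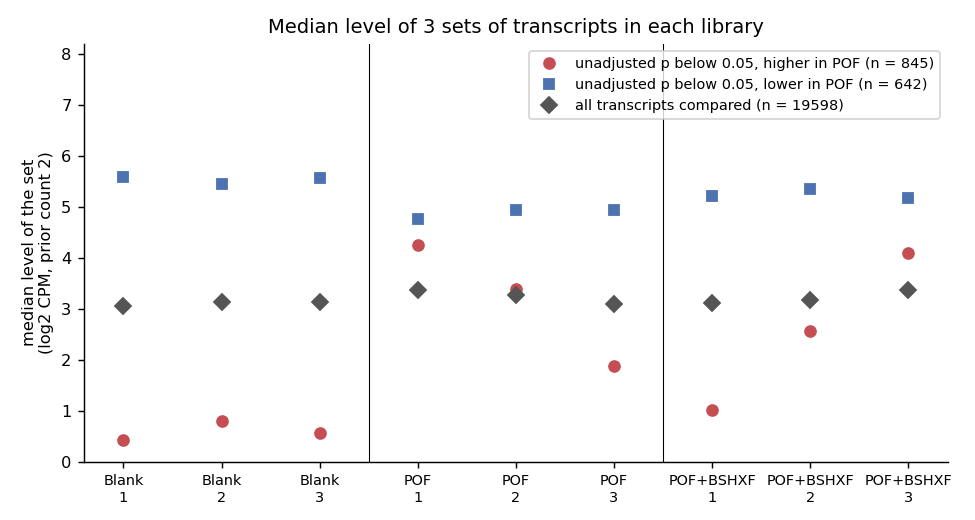
Median level (log2 CPM, prior count 2) in each library of the 845 transcripts higher and the 642 lower in POF at an unadjusted p under 0.05, and of all 19598. The red points spread from 1.89 to 4.25 among the POF libraries, while the blue points lie between 4.76 and 4.95.

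The POF libraries differed more among themselves than the Blank libraries for most transcripts, though not in every pair of libraries. The SD of log2 CPM over 3 libraries had a median of 0.41 in POF and 0.29 in Blank, with 0.39 in POF+BSHXF. It was larger in POF for 12295 of the 19598 transcripts (62.7%). With POF replicates 1, 2 and 3 left out in turn the share was 50.6%, 57.6% and 51.3%. An SD of 2 libraries is there set against an SD of 3, so these shares cannot be read against the 62.7%. Pairs of POF libraries stood more than 4-fold apart for 2083 transcripts (replicates 1 and 2), 2313 (2 and 3) and 2946 (1 and 3). Pairs of Blank libraries did so for 1649 to 2279, the highest being Blank replicates 1 and 2, above POF replicates 1 and 2. Over all 19598 transcripts, the log2 CPM of POF replicate 3 correlated with Blank replicates 1 to 3 at 0.850, 0.867 and 0.865 (Pearson). With POF replicates 1 and 2 it correlated less, at 0.800 and 0.841. POF replicate 1 correlated best with POF+BSHXF replicate 3 (0.855), and at 0.838 with POF replicate 2. By this measure the libraries did not group by treatment. In POF replicate 1, 1556 transcripts were more than 4-fold above the mean log2 level of the other two POF libraries, against 988 and 938 in replicates 2 and 3. Those more than 4-fold below numbered 1003, 862 and 1542 in replicates 1 to 3, so replicate 1 stood out upward and replicate 3 downward. In Blank, replicate 1 differed most, with 1331 transcripts more than 4-fold below the mean log2 level of the other two.

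The number of the 19598 transcripts found in a library did not separate the groups. Those at 0 numbered 1156, 626 and 608 in the Blank libraries and 646, 629 and 625 in the POF libraries (2-sided exact permutation p = 0.9). Those at a count of 10 or more numbered 17649, 18478 and 18532 in Blank and 18410, 18428 and 18476 in POF (p = 1 in the same exact test). The level rule chose the 19598 by their counts in these same 6 libraries. These p-values therefore cannot show that equally many transcripts are found in the groups. Blank replicate 1 stood apart in both counts, and in the other 5 libraries 608 to 646 transcripts were at 0. Over the whole table, without the level rule, the groups did separate. The rows above 0 numbered 20637, 21696 and 21742 in Blank and 22227, 21929 and 21862 in POF. Every POF library thus lay above every Blank library, a difference that was not tested.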

How the data were processed

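The values the authors deposited, whole numbers for each transcript in 9 libraries, were read as estimated counts that were not normalized before deposit, and this reading was not tested. Multiples of 4 are 29.5% of the values from 1 to 40 (25% of the whole numbers in that range), and StringTie is a named tool. The submitters' processing notes list StringTie 1.3.4d, HISAT2 2.0.4, cutadapt 1.9, DESeq2 and edgeR. For the counting step, the build and the annotation, no source used here gives a name. Columns were matched to samples by group name and number, those named for treatment to the samples labelled with the formula, and 0 columns were left over.

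Levels are CPM after TMM. The test was edgeR 4.0.16 (R 4.3.3), quasi-likelihood with robust dispersion, 9 libraries in 1 fit of 3 group means (6 residual degrees of freedom), Benjamini-Hochberg over the 19598 transcripts, threshold 0.05. Standard errors are the fold change over the square root of F. Log2 CPM used a prior count of 2. Abundance is the mean over the 6 libraries. The test was tested on simulated data. DESeq2 1.42.0 and limma 3.58.1 (voom) were alternatives. The rule for naming took calls first, then the smallest p among transcripts of at least 2 CPM, present in all 6 libraries and without overlap, at most 2 in each direction. The transcripts and gene lists were chosen with earlier results of these data known. No gene list could be matched to an ID, and none was tested.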

Additional observations from a re-analysis of the deposited data

How the results depend on the processing

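The 2 transcripts passing the threshold were the same 2 under RLE normalization, library totals alone, no filter, a stricter filter of 40 counts and edgeR's own filter. DESeq2 called 345 (both among them, 96 at 0 in some Blank or POF library) and limma-voom 1 (neither). A fit of only the 6 libraries called 9 (8 at 0 in some library), and counts divided by 4 gave 4 (2 at 0 in some library). Leaving out 1 library gave 3 to 10 calls, both among them each time: 9, 10 and 7 without Blank replicates 1 to 3, 8, 8 and 5 without those of POF and 4, 4 and 3 without those of POF+BSHXF. In the same order, 4, 7 and 5, then 5, 6 and 2, then 3, 3 and 2 of these calls were at 0 in some Blank or POF library. The cause of the change in calls was not tested. In a fit with a replicate block edgeR called 0, with 866 at an unadjusted p under 0.05. The library numbers gave no sign of pairing. Same-numbered Blank and POF libraries had correlations of deviations of -0.06, -0.01 and -0.02, and no POF library correlated best with its own number. With 3 libraries in each group, these correlations cannot exclude a pairing.

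The count at an unadjusted p under 0.05 ran from 827 to 2286 with 1 library left out, and the count without overlap from 4251 to 7059, where fewer libraries overlap less by construction. It was 5100 and 5413 without Blank replicates 1 and 2, and 4878, 4978 and 7059 without POF replicates 1 to 3. The share of transcripts with the larger SD in POF ran from 50.6% to 74.0% with 1 library left out. An SD of 2 libraries was then set against an SD of 3, so these shares are not like for like. The shares of the most abundant transcripts kept their direction with another total. The alternative of summing transcripts to genes was not run, as no table used here pairs these IDs with genes. The common biological coefficient of variation was 0.691. How far depth or this spread limits the calls was not compared.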
